A study of Mus musculus with 2 samples.

Results

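The genes described here make, carry, sense and remove retinoic acid. They comprise the 4 mouse retinaldehyde dehydrogenase family members *Aldh1a1*, *Aldh1a2*, *Aldh1a3* and *Aldh1a7*, the binding proteins *Rbp4* and *Crabp2*, the receptor *Rarb*, the reductase *Dhrs3* and the breakdown enzyme *Cyp26b1*. The arrays held 10 probes for these 9 genes, among 39416 gene probes with 31821 gene names. The set was chosen by name, with the knockout over control ratios of these same arrays in view, *Aldh1a3* in particular. The ratios of the 9 genes are therefore a description, with no test in their support.

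Total RNA came from whole kidneys of 2-month-old mice. The knockout was *Cnnm2*fl/fl;*Six2-Cre*, in which both floxed alleles of *Cnnm2*, a gene for a membrane protein of renal magnesium transport, can be deleted. The control was *Cnnm2*+/+;*Six2-Cre*, so that both genotypes carried Cre under the promoter of *Six2*, a gene of the nephron progenitors of the embryonic kidney. These progenitors form the nephron from podocytes to distal tubule, whereas the collecting ducts, the urothelium of the pelvis and the stroma come from other cells. Both RNAs were hybridized together on 2 arrays of 2 colours, with the knockout in Cy5 on array 1 and in Cy3 on array 2. The number of mice behind each RNA, and whether both arrays carried the same RNA, are not given in the sources used here, so each genotype was taken to have 1 replicate. Each SD below is the spread of the 2 arrays and is not known to include the spread between mice.

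Retinol circulates bound to retinol-binding protein and is oxidized in cells to retinaldehyde, which DHRS3 can reduce back to retinol. The enzymes ALDH1A1, ALDH1A2 and ALDH1A3 oxidize retinaldehyde irreversibly to retinoic acid. CRABP2 carries retinoic acid to nuclear receptors such as RARβ, and CYP26 enzymes hydroxylate it for removal. In the developing kidney, retinoic acid made in the stroma acts on the ureteric bud, the precursor of the collecting ducts and the ureter.

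Each array probe is a 60-base oligonucleotide from the sense strand of a transcript, and its last 30 bases are shown for all *Aldh1a* members and for *Cyp26b1*, because the description turns on these probes telling the enzymes apart. Capitals mark a polyadenylation hexamer (AATAAA), where the stretch holds one. Positions are those of the stretch on the mm9 build, with the strand.
Aldh1a1, chr19:20717794-20717823, plus strand: gtgactccttgaagtactcaccacacataa
Aldh1a2, chr9:71143961-71143990, plus strand: agaatgtgaaaatgaagatttatgactttt
Aldh1a3, chr7:73535785-73535814, minus strand: gttcagcaatgaaaaAATAAAgttggacac
Aldh1a7, chr19:20767553-20767582, minus strand: tgaaaagttagctgctctattcctcggggt
Cyp26b1, chr6:84521952-84521981, minus strand: gggtgatgtagtctcacattcctaactatt
No pair of whole *Aldh1a* probes shared a run of more than 8 bases, which was the run shared by the probes for *Aldh1a1* and its close relative *Aldh1a7*. The most alike pair in an ungapped alignment was *Aldh1a1* and *Aldh1a3*, with 26 of 60 bases identical. Probes were compared with probes and not with the transcripts of the other genes. Whether a probe also binds another *Aldh1a* transcript was therefore not tested. The hexamer AATAAA or its common variant ATTAAA was in 4 of the 10 member probes (*Aldh1a3*, *Dhrs3*, *Rbp4* and 1 of the 2 for *Rarb*) and in 16.7% of all gene probes.

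*Rarb* is itself a textbook target of retinoic acid, through a direct repeat of receptor half-sites just upstream of a start of transcription. The promoter windows of RefSeq (GRCm38.p6; 250 bases before and 50 bases after each start) held 11 windows for 7 of the 9 genes, and *Aldh1a3* and *Crabp2* were not matched. They were searched on both strands for pairs of half-sites in the same orientation (AGGTCA itself, the variant AGTTCA, the variant GGGTCA and the variant GGTTCA), separated by 1, 2 or 5 bases; matches with different spacers were allowed to overlap. A pair separated by 5 bases was in 1 member window, that of *Rarb*, and in 0.0974% of all 32851 windows. Pairs separated by 1 or 2 bases were in 0 member windows, against 0.222% and 0.268% of all windows. The 100 bases before the start of *Rarb* are shown, with the repeat in capitals, which begins 53 bases before the start (position -53).
Rarb, GRCm38.p6 chr14:16575477-16575576, minus strand: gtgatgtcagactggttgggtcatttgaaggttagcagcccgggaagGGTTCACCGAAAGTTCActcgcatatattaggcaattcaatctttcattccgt
A match of letters is a description of the window and not a measured binding site, and the absence of a match says only that these letters are not in that window.

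The labels were checked with *Cnnm2* itself, whose log2 ratio of knockout over control was -2.88 on array 1 and -2.46 on array 2. The values used were processed signals, intensities that the scanner software had corrected for background and dye, in arbitrary units. In at least 1 genotype, 19707 genes were called well above background by the scanner software on both arrays, and all shares of genes below refer to these. All genes of the lists for proximal tubule (10 of 10), thick ascending limb (4 of 4) and collecting duct principal cells (6 of 6) were among them, as a kidney label requires. Across genes, the ratios of the 2 arrays ran against each other, with a Pearson's r of -0.51; the direction used here rests on the dyes stated in the labels. Averaging the arrays cancels a dye effect, and this mean had a median of -0.01 and lay between -0.44 (percentile 2.5) and 0.41 (percentile 97.5). Leaving out dim genes did not concern the 9 genes, since each of the 10 probes was well above background in all 4 signals, with 0 saturated signals and 0 spots marked as unreliable.

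Of the 9 genes, *Aldh1a3* stood apart upward and *Cyp26b1* downward, *Crabp2* was moderately higher, and the other 6 had mean log2 ratios between -0.14 and 0.12. A gene was counted as changed in size when its mean log2 ratio was at least 1 (2-fold) in either direction with the same sign on both arrays. By this rule 1 of the 9 was higher (*Aldh1a3*), where 0.315% of all genes were, and 0 were lower, where 0.284% were. The sign was the same on both arrays for 5 of the 9, against 27.7% of all genes. These were 3 higher (*Aldh1a3*, *Crabp2* and *Rarb*) and 2 lower (*Cyp26b1* and *Aldh1a2*), against 12.1% and 15.6%. As the set was chosen with these ratios known, nothing is read from these counts. The median of the 9 means was 0.06.

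**Figure D1:**
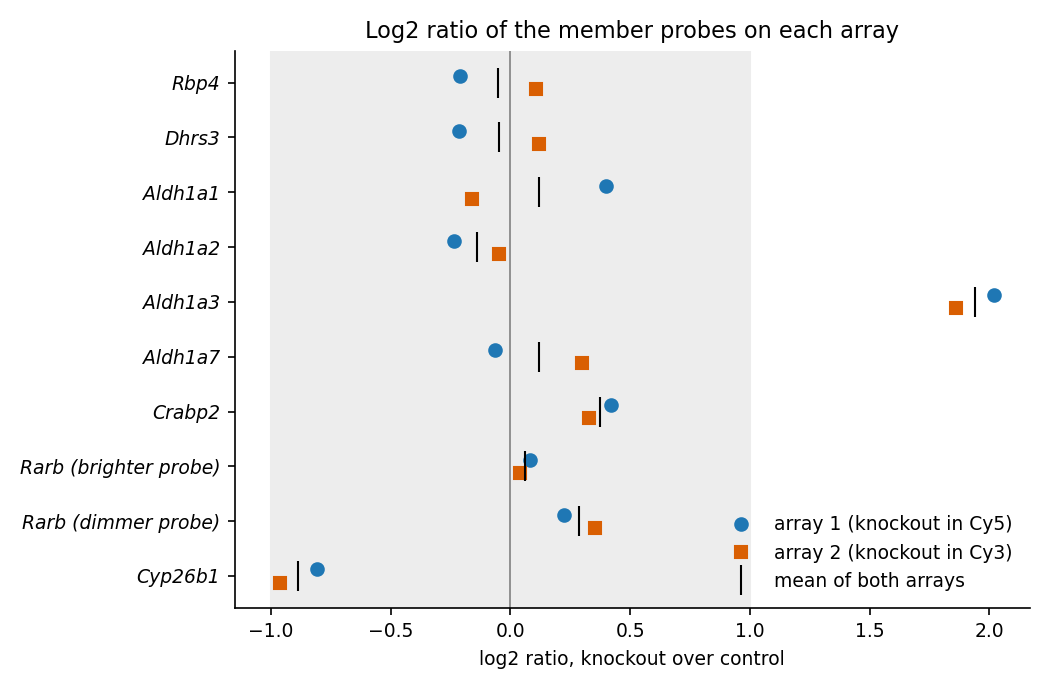
Log2 ratio of knockout over control (horizontal axis) of each of the 10 member probes on array 1 (circles) and array 2 (squares), with the mean of both as a vertical tick; grey marks means under 1 in size. *Aldh1a3* lies beyond 1 on both arrays, *Cyp26b1* lies near -0.89, and 4 genes have opposite signs on the arrays.

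*Aldh1a3* encodes the retinaldehyde dehydrogenase RALDH3. On array 1, its processed signal was 604 in knockout RNA and 149 in control RNA. On array 2, it was 477 and 131. Both knockout signals were thus above both control signals, and both genotypes had a lower signal on array 2. Signals were corrected within each array and not between the arrays. The share of all genes with such a separation of the genotypes was not counted, so nothing is read from it, here and below. The log2 ratios were 2.02 and 1.86, with a mean of 1.94 ± 0.11 (SD of the 2 arrays), or 3.83-fold. The mean ranked 7th from the highest of 19707 genes, and 0.0863% of genes had a mean of larger size in either direction. Before background and dye correction, the raw signals were 1238 and 197 on array 1, over a local background of 39 and 32. On array 2 they were 628 and 348, over a local background of 36 and 49 (knockout before control each time). The order of the genotypes was therefore the same in raw signals, also on array 2, where the control carried the brighter dye. With another background correction and dye normalization (normexp with loess), the mean was 1.24 and still above 1. In whole-kidney RNA, a difference in the number of cells that express a gene and a difference in RNA per cell cannot be told apart, here and for every gene below.

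The other 3 family members did not share this. *Aldh1a1*, which encodes RALDH1, had signals of 3394 in the knockout and 2571 in the control on array 1, and of 2475 and 2763 on array 2. The genotypes overlapped, and the log2 ratios of 0.40 and -0.16 had opposite signs, with a mean of 0.12 ± 0.40. *Aldh1a7*, a rodent relative of *Aldh1a1* on the same chromosome, had signals of 3586 and 3745 on array 1 and of 3328 and 2701 on array 2. Its log2 ratios of -0.06 and 0.30 also had opposite signs (mean 0.12 ± 0.26). *Aldh1a2*, whose product RALDH2 is the main source of retinoic acid in the embryo, had signals of 287 and 338 on array 1 and of 279.5 and 288.5 on array 2. Its ratios of -0.24 and -0.05 had the same sign, but the mean of -0.14 ± 0.14 was of the size of the spread of the arrays. With no background correction and loess, the ratio of *Aldh1a2* on array 2 was 0.001, so that its shared sign was lost. *Aldh1a1*, *Aldh1a7* and *Rbp4* lie on chromosome 19, as *Cnnm2* does, and these 3 were among the 4 members whose sign differed between the arrays. With background-subtracted signals centred on the median, *Aldh1a7* had 0.11 and 0.12 and so the same sign on both arrays.

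**Figure D2:**
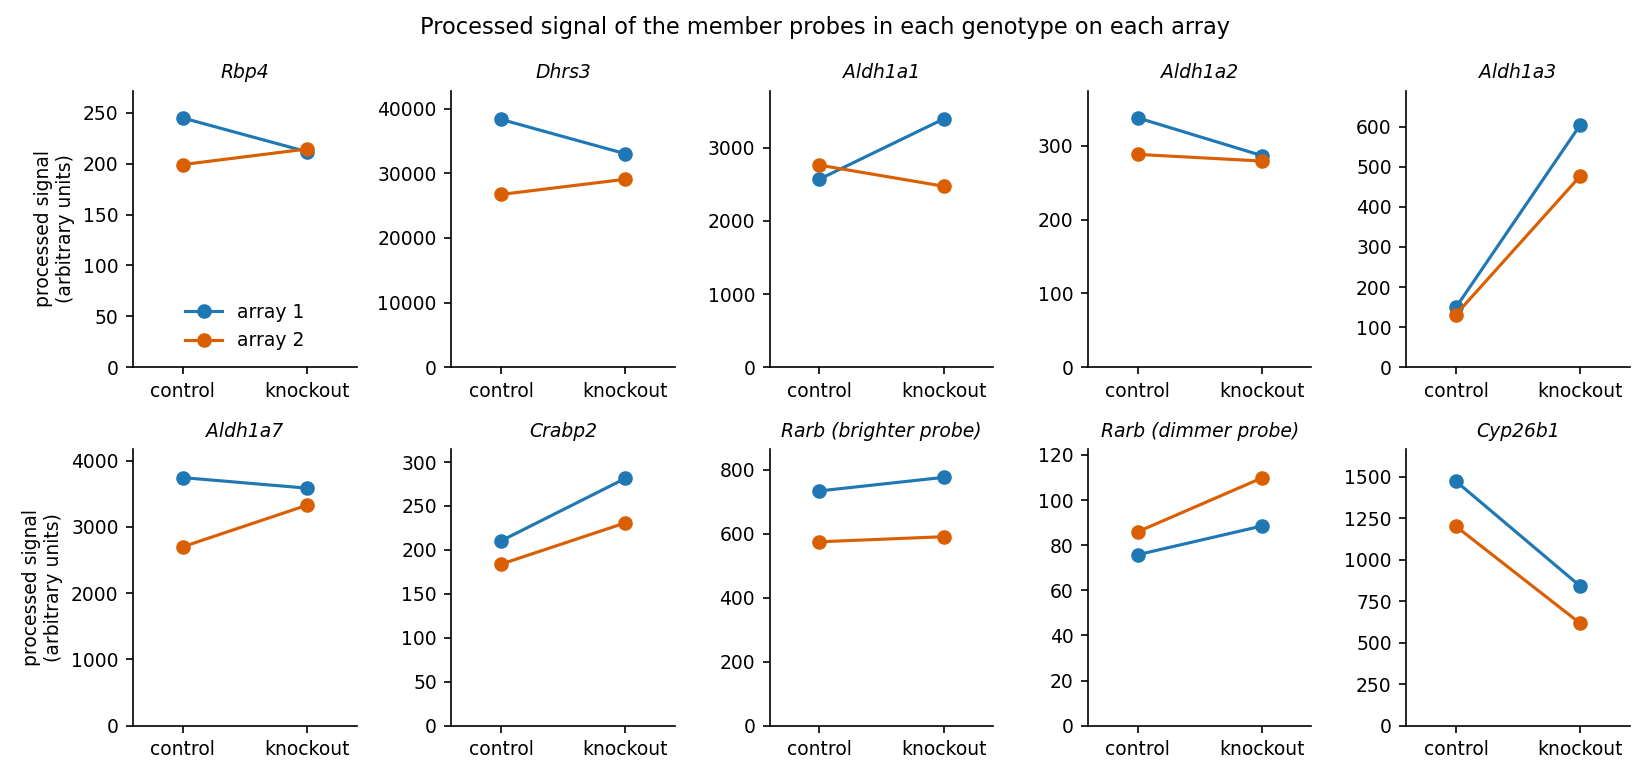
Processed signal (vertical axis, arbitrary units, starting at 0) of each member probe in control and knockout, with a line joining the genotypes on array 1 and on array 2. The lines of *Aldh1a3* climb steeply on both arrays from 149 and 131, those of *Cyp26b1* descend on both, and those of *Aldh1a1*, *Aldh1a7*, *Dhrs3* and *Rbp4* slope in opposite directions.

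*Cyp26b1* encodes a cytochrome P450 that hydroxylates retinoic acid. Its signal on array 1 was 842 in knockout RNA and 1474 in control RNA. On array 2, it was 617 and 1202. Both knockout signals were below both control signals. The log2 ratios were -0.81 and -0.96, with a mean of -0.89 ± 0.11 (SD of the 2 arrays), which is 1.85-fold lower in the knockout. This mean ranked 87th from the lowest and missed the limit of 1. A mean of larger size in either direction was measured for 0.878% of genes. Across the background corrections and normalizations tried, the mean lay between -0.89 and -0.70, always under 1 in size. *Cyp26b1* and *Aldh1a3* thus differed in opposite directions, each by more than the spread of the arrays.

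*Crabp2* encodes the protein that delivers retinoic acid to its receptors. Its probe (chr3:87757207-87757266, mm9) had the same order of genotypes on both arrays. Its signals were 281 in the knockout and 210 in the control on array 1, and 231 and 184 on array 2. Both knockout signals were above both control signals. The mean log2 ratio was 0.37 ± 0.07, or 1.30-fold, from 0.42 and 0.33 on the arrays, and 3.11% of genes had a higher mean. With normexp and loess the mean of *Crabp2* was 0.24.

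*Rarb*, the receptor gene with the repeat shown above, had 2 probes. The brighter probe (chr14:17263367-17263426, mm9) had signals of 776 in the knockout and 733 in the control on array 1, and of 590.2 and 574 on array 2. Its log2 ratios were 0.08 and 0.04, with a mean of 0.06 ± 0.03. The difference between the genotypes on each array was smaller than the difference between the arrays within a genotype. The dimmer probe (chr14:17264648-17264707) had signals of 88.5 and 75.8 on array 1 and of 109.8 and 85.9 on array 2. Its log2 ratios were 0.22 and 0.35 (mean 0.29 ± 0.09). Both probes had a positive ratio on each array, and they differed in its size. With background-subtracted signals centred on the median, the brighter probe had 0.20 on array 1 and -0.04 on array 2.

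*Dhrs3* (probe at chr4:144517485-144517544), which returns retinaldehyde to retinol and is known to be raised by retinoic acid, had signals of 33010 in the knockout and 38320 in the control on array 1, and of 29060 and 26720 on array 2. Its log2 ratios of -0.22 and 0.12 had opposite signs, with a mean of -0.05 ± 0.24. *Rbp4* (probe at chr19:38191120-38191179), the plasma carrier of retinol, had signals of 212 and 245 on array 1 and of 214.5 and 199 on array 2. Its log2 ratios of -0.21 and 0.11 were also opposite, with a mean of -0.05 ± 0.22. The sign of both differed with the dye of the knockout. Together with *Aldh1a1* and *Aldh1a7*, they were the 4 members of opposite signs, with means between -0.05 and 0.12.

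**Figure D3:**
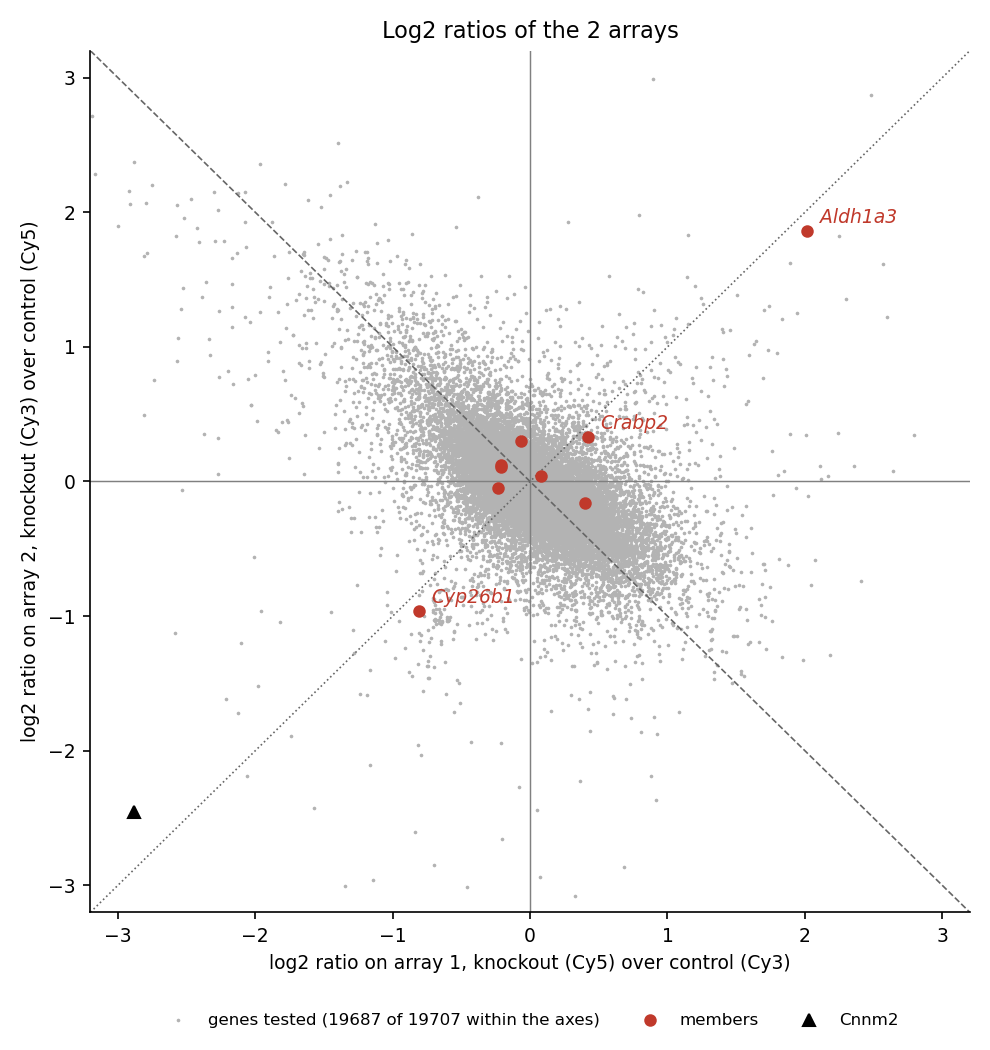
Log2 ratio of knockout over control on array 1 (horizontal axis) and array 2 (vertical axis) for the genes well above background (grey), the 9 members (red; the brighter probe of *Rarb*) and *Cnnm2* (triangle). The dotted diagonal marks equal ratios on both arrays and the dashed one opposite ratios, along which most genes lie (r of -0.51); *Aldh1a3*, *Cyp26b1* and *Crabp2* lie near the dotted line.

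The genes most like *Aldh1a3* were sought by the Euclidean distance between the pairs of log2 ratios of the 2 arrays, over 18919 other genes well above background in both genotypes. The nearest was *Gcnt3*, which encodes a glycosyltransferase of mucin synthesis, with ratios of 1.89 and 1.62 (distance 0.27). *Meox2*, a homeobox gene, had ratios of 2.30 and 1.36 (distance 0.58). *Pdia2*, a protein disulfide isomerase gene, had 2.57 and 1.61 (distance 0.60). *Pi4k2b*, a phosphatidylinositol kinase gene, had 1.95 and 1.25 (distance 0.62), and *Tal2*, a gene for a helix-loop-helix transcription factor, had 1.74 and 1.31 (distance 0.62). All 5 had a larger ratio on array 1 than on array 2, and their arrays differed by more than those of *Aldh1a3*. A likeness over 2 arrays of the same comparison describes the size of the ratios and nothing else.

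The rest of the retinoid pathway was taken from lists of 39 other genes, of which 38 had a probe and 31 were well above background in at least 1 genotype on both arrays. None of the 31 passed the size rule in either direction. Some genes were taken out of these lists after their values were seen, so this holds only for the genes kept. The sign was the same on both arrays for 8 genes (8 higher and 0 lower, against 12.1% and 15.6% of all genes), and it was opposite for 23. With background-subtracted signals centred on the median, 6 were higher and 2 lower on both arrays. The median of the means was 0.01, with a lowest of -0.26 and a highest of 0.90. Among the 10 carriers, uptake and storage genes, the highest was *Ttr*, the plasma partner of retinol-binding protein, whose signals were 22840 in the knockout and 9030 in the control on array 1, and 15730 and 11380 on array 2. Its log2 ratios were 1.34 and 0.47, with a mean of 0.90 ± 0.62. *Lrat*, which esterifies retinol for storage, had a similar pattern at low signal, with 87.1 and 34.0 on array 1 and 50.3 and 37.5 on array 2, and a mean of 0.89 ± 0.66. Both were higher on both arrays, but most of each mean came from array 1, and their SD was 0.62 and 0.66, against 0.11 for *Aldh1a3*. The lowest was *Stra6*, the cellular receptor for retinol-binding protein, with ratios of -0.63 and 0.12.

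Among the 14 retinol and retinaldehyde oxidoreductases, 3 had the same sign on both arrays, and the means of the 14 lay between -0.24 (*Rdh1*) and 0.26 (*Dhrs4*). At these ends the arrays opposed each other, with 0.62 and -1.09 for *Rdh1* and -0.33 and 0.83 for *Dhrs4*. *Rdh10*, which makes most of the retinaldehyde of the embryo, had ratios of 0.11 and 0.21 (mean 0.16 ± 0.07). Among the 6 other nuclear receptors, by their brightest probes, *Rara* was the highest and the only one with the same sign on both arrays (0.10 and 0.07). Its other probe had 0.01 and -0.43. *Ppard* was the lowest receptor gene by the brightest probes, with a mean of -0.06. The dimmer probe of *Rxrg* was lower on both arrays, with -0.605 and -0.05. *Cyp26a1*, the other breakdown enzyme above background and a strong target of retinoic acid in many tissues, had dim signals of 31.8 and 21.1 on array 1 and of 22.3 and 19.4 on array 2, and its ratios were 0.59 and 0.20. Its mean of 0.40 was 0.03 with normexp and loess and 0.12 with loess alone.

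**Figure D4:**
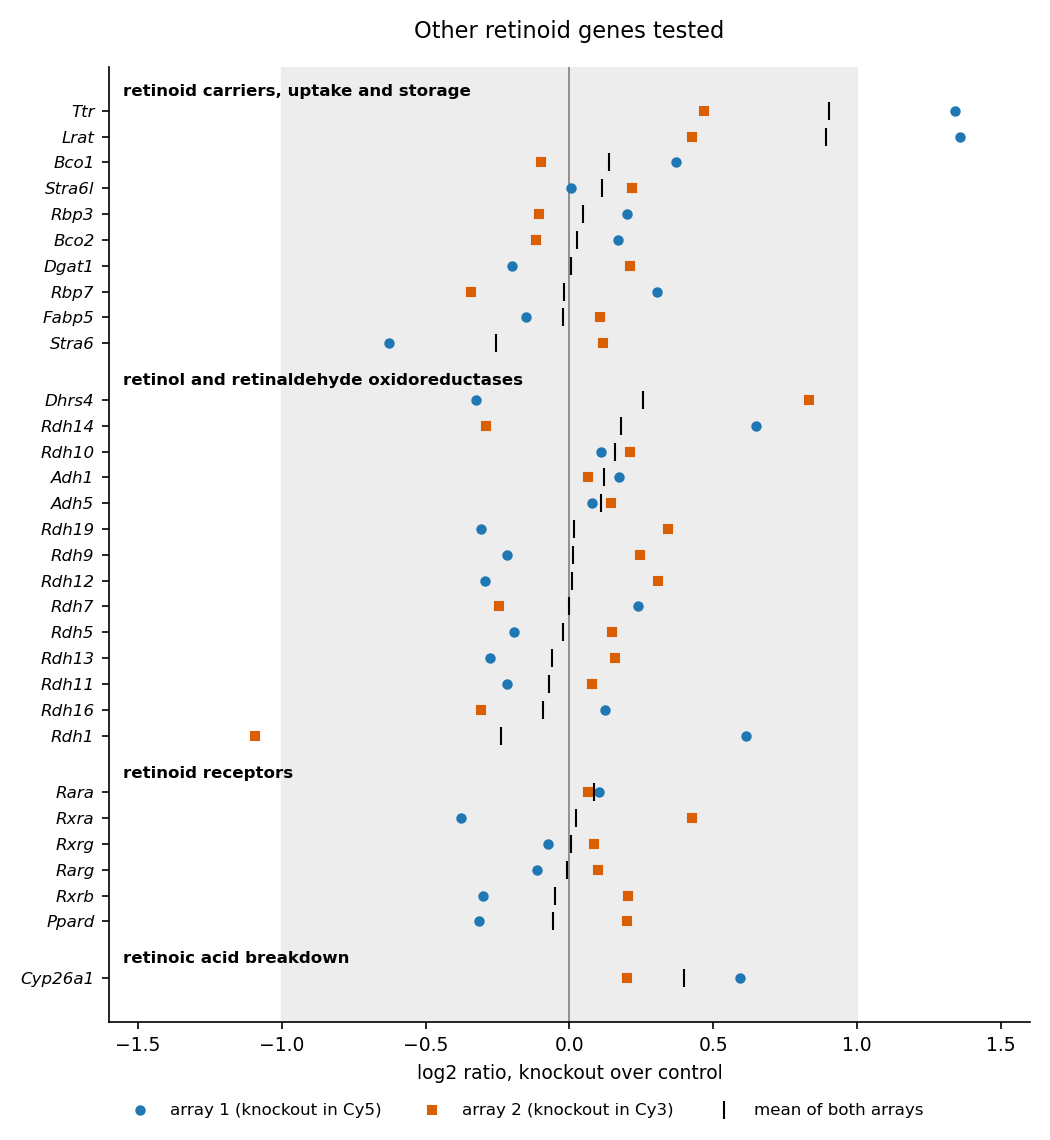
Log2 ratio of knockout over control (horizontal axis) of the 31 other retinoid genes above background, by role, on array 1 (circles) and array 2 (squares), with the mean as a tick; grey marks means under 1 in size. No mean leaves the grey band, *Ttr* and *Lrat* come nearest at 0.90 and 0.89, and 23 genes have circles and squares on opposite sides of 0.

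The genes known to be raised by retinoic acid, where above background, had mean log2 ratios between -0.26 and 0.89. Of 12 such genes listed (with *Lrat*, *Stra6* and *Cyp26a1* also in the lists above), 8 were above background, and the median was 0.06. On both arrays 3 of the 8 were higher (*Lrat*, *Cyp26a1* and *Rarres2*) and 0 were lower, against 12.1% and 15.6% of all genes, and the other 5 had opposite signs. The highest was *Lrat* and the lowest *Stra6*. *Rarres2*, which encodes the adipokine chemerin, had ratios of 0.54 and 0.03. The 15 aldehyde dehydrogenases outside the *Aldh1a* group had a median of 0.09, and 0 of them passed the size rule. They ran from -0.10 (*Aldh1l1*, an enzyme of folate metabolism) to 0.40 (*Aldh3a2*, the fatty aldehyde dehydrogenase, with -0.56 and 1.37). *Aldh1a3* was thus the one gene past the size rule among the members, these 15 aldehyde dehydrogenases and the 31 other retinoid genes kept. Genes outside these lists, also those taken out of them, were not counted.

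Markers of the urothelium were higher beside *Aldh1a3*. All 7 urothelial markers listed were higher in the knockout on both arrays, and none passed the size rule. The lists, like the members, were chosen with earlier results of these data known. Nothing is therefore read from the counts, here and for the lists below. Their mean log2 ratios lay between 0.36 (*Upk2*) and 0.87 (*Upk1b*), with a median of 0.63, against 12.1% of all genes higher on both arrays and a median of -0.01. Their summed signal was 3241 and 2789 in the knockout and 2228 and 1872 in the control. Of the defining uroplakin genes, *Upk1a* had signals of 1453 and 1093 on array 1 and of 1129 and 789 on array 2, and *Upk3a* had 507 and 353 and then 535 and 315, so neither was at 0 in either genotype. Of the others, *Krt19* is also a keratin of collecting ducts. By the brightest probes, the urothelial median lay between 0.43 and 0.64 under the background corrections and normalizations tried. All 7 were higher on both arrays in each. The dimmer probe of *Krt5*, not well above background in both genotypes, had opposite signs, with -1.83 and 2.54. The part of the urothelium in the ratio of *Aldh1a3* was not tested. Mesothelial *Msln* (0.43) and *Upk3b* (0.53) were also higher on both arrays, and their list mate *Wt1*, shared with the podocytes, was lower (-0.36). The summed signal of the 3 was 1278 and 929 in the knockout and 1299 and 1219 in the control. Most of it was *Wt1*, with 1001 and 693 in the knockout and 1099 and 1045 in the control. The median of the 3 was 0.43, and it was 0.12 with normexp and loess.

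No gene of the lists for injury, sex bias or the Y chromosome passed the size rule. The counts of genes with the same sign on both arrays stand against 12.1% of all genes higher and 15.6% lower. Of 6 genes of tubular injury, 4 were higher and 1 lower on both arrays (median 0.27), with *Krt20*, a keratin of superficial urothelium too, the highest at 0.84 and *Vcam1* the lowest at -0.26. The dimmer probe of *Vcam1* had -0.04 and 0.30, so its probes disagreed. *Havcr1*, which encodes the injury marker KIM-1, had 0.56 and 0.38 with its brighter probe and 0.95 and 0.97 with its dimmer one. The summed signal of the 6 was 51830 and 48890 in the knockout and 48810 and 38520 in the control. Most of it was *Clu*, whose signs on the arrays were opposite. *Clu* had 39830 and 38100 in the knockout and 40020 and 28420 in the control. Of 5 genes that are higher in male than in female mouse kidney, 4 were higher on both arrays (median 0.30, from 0.22 for *Cyp4a12b* to 0.45 for *Slco1a1*), and their summed signal was 56260 and 50700 against 47980 and 40440. Of 3 female-biased genes, *Slc7a12* (-0.98) and *Prlr* (-0.73) were lower on both arrays, and *Cyp4a14* had 0.14 and -0.39. The summed signal of these 3 was 13580 and 9140 in the knockout and 13700 and 12510 in the control. Most of it was *Cyp4a14*, with 12170 and 7826 in the knockout and 11050 and 10230 in the control. The 3 Y-linked genes above background had opposite signs on the arrays, with means from -0.04 (*Ddx3y*) to 0.16 (*Eif2s3y*). The signals of *Ddx3y* were 1534 in the knockout and 1097 in the control on array 1, and 900 and 1337 on array 2. *Xist* was not well above background in either genotype. Its signals were 5.425 and 3.07 on array 1 and 2.965 and 2.56 on array 2. The study's methods say that mice were matched for sex, and the sex behind these RNAs is not stated in the sources used here. The Y-linked and *Xist* signals are those of male RNA in both genotypes. The part of injury or of sex-biased expression in the ratios of *Aldh1a3*, *Cyp26b1* and *Crabp2* was not tested.

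Of the remaining lists, the median log2 ratio was -0.02 for proximal tubule, from *Slc22a8* (-0.17) to *Slc22a6* (0.21). It was -0.09 for thick ascending limb, from *Kcnj1* (-0.37) to *Slc12a1* (0.17), and -0.09 for principal cells, from *Scnn1g* (-0.31) to *Aqp2* (0.17). Fibroblasts had a median of 0.02, from *Pdgfrb* (-0.14) to *Lum* (0.35). Podocytes had a median of -0.27, from *Wt1* (-0.36) to *Podxl* (-0.11), and 3 of their 4 genes were lower on both arrays, against 15.6% of all genes. The inner medullary list had a median of 0.03 and held 1 gene past the size rule by its brightest probe, *Akr1b3*, which encodes aldose reductase, the enzyme of sorbitol synthesis. Its signals were 22210 in the knockout and 8434 in the control on array 1, and 20020 and 9148 on array 2, which gave a mean of 1.26 ± 0.19. The lowest was *Slc5a3* (-0.14). *Slc14a2*, a urea transporter gene of this list, had -0.20 and 0.02 with its brightest probe, but its dimmer probe had 2.27 and 2.38 and would have passed.

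**Figure D5:**
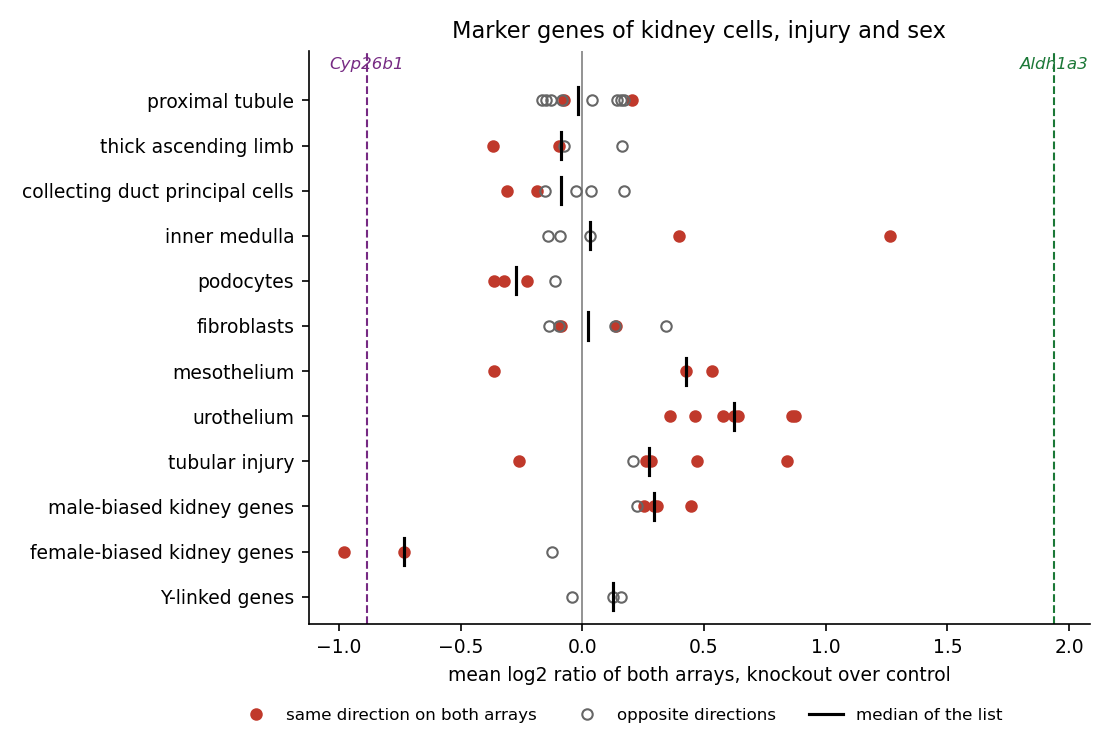
Mean log2 ratio of both arrays (horizontal axis) of each marker gene above background, by list, with filled points for genes of the same sign on both arrays, open points for opposite signs and a black line at the median of the list; dashed lines mark *Cyp26b1* and *Aldh1a3*. All 7 urothelial points are filled and lie between 0.36 and 0.87, below *Aldh1a3* at 1.94.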

How the data were processed

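The scanner files that the authors deposited come from Feature Extraction of Agilent (10.7.3.1 in the file header, 10.5.1.1 in the submitters' processing notes) and hold signal intensities before background subtraction, after it and as processed signals, which per the file headers are corrected for background and dye within each array. The authors also deposited log10 ratios of red over green, and a series matrix of log10 ratios whose direction was found to be knockout over control, with values within 0.00492 (array 1) and 0.00483 (array 2) of the scanner ratios so turned and column medians of 0.0. Probe positions per the file headers are on mm9.

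Here, log2 ratios of the deposited processed signals were taken as knockout over control, by the dyes in the labels, and averaged over the 2 arrays. Control spots and spots marked by the software as non-uniform or outlying were left out. The spots of a probe were averaged, and the probe with the highest mean signal stood for a gene name. A gene was kept if at least 1 genotype was well above background for its probe on each array. Since each genotype had 1 replicate, the genotypes were compared without a test, by a rule of size (mean log2 ratio of at least 1, same sign on both arrays). The number of arrays limits the precision, and 280 probes with 10 spots had a median SD between spots of 0.036 (log2 ratio) on each array.

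The members and lists were chosen with earlier results of these data known. Named genes were all members with all probes, *Cnnm2*, the genes past the size rule and the highest and lowest of each list, the 5 genes nearest to *Aldh1a3*, and markers of the lists reported. *Rdh10*, *Rxrg*, *Cyp26a1*, *Rarres2*, *Havcr1*, *Slc14a2* and the second-ranked *Lrat* were named after their values were seen. *Rdh18* and *Cyp2a5* had no probe, and 7 other retinoid genes were not well above background. Some genes were taken out of the lists of retinoid genes and of podocytes after their values were seen, for reasons unrelated to those values, and are not reported here; the other lists are whole.

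Alternatives were normexp (offset of 50) with loess in limma 3.58.1, median-centred signals after background subtraction (floor of 1), loess alone without background correction, the log10 ratios as deposited, the matrix, all probes however dim, only genes above background in both genotypes, marked spots kept, the median over probes, each array alone, 2-fold on each array, and the methods' t-test (threshold of 0.1 and a mean fold above 2) before and after Benjamini-Hochberg adjustment. The code was tested on simulated data. Python 3.11.15, numpy 2.4.6, pandas 2.3.3, scipy 1.17.1, matplotlib 3.10.9 and R 4.3.3 were used. Promoter sequences are those of RefSeq on GRCm38.p6.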

Additional observations from a re-analysis of the deposited data

How the results depend on the processing

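Over the 9 alternatives of background correction, normalization, source of the ratio, filter and probe, all 9 genes kept the sign of their mean. Most of these could hardly alter the members. The deposited ratios and the matrix hold the same ratios. The filters and marked spots touch none of the member probes, all well above background and unmarked. The median over probes altered only *Rarb*. Other moves came only from normexp with loess, background subtraction with median centring, and loess alone. *Aldh1a3* lay between 1.24 (normexp with loess) and 1.96, with 1.69 for no background correction with loess. *Cyp26b1* lay between -0.89 and -0.70 and *Crabp2* between 0.24 and 0.40, both with normexp and loess nearest to 0, and *Rarb* was 0.17 as the median of its probes. The cause of these moves was not tested, other than for *Rarb*, where the median adds the dimmer probe. The count of members higher by the size rule was 1 and of members lower 0 in these alternatives, on each array alone and with 2-fold on each array. The methods' t-test treats the arrays as replicates and the members were chosen on these ratios, so it supports nothing here; it counted 1 member higher before and 0 after Benjamini-Hochberg adjustment, and 22 genes higher and 14 lower before and 0 after it among all 19707. For all genes, the 62 higher and 56 lower became 7 and 8 with normexp and loess and 12 and 12 with no background correction and loess. Without a limit on dim probes they were 232 and 179 (of 31821), where both genotypes had to exceed background 37 and 27 (of 18920), and with 2-fold on each array 28 and 20. On array 1 alone, 1097 and 633 genes passed, and on array 2 alone, 576 and 882. Of the other retinoid genes, 2 were higher on array 1 alone and 2 were lower on array 2 alone, against 0 in the mean of both; a single array does not separate dye from genotype. The processed signals of the dim genes *Lrat* and *Cyp26a1* were below those of the brightest probe of every member. With normexp and loess, the mean of *Cyp26a1* went from 0.40 to 0.03, and that of *Aldh1a3* from 1.94 to 1.24.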
